A study of Mus musculus with 24 samples.

Results

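The comparison described here is of hippocampal RNA from APP/PS1 mice that had received urolithin A and were then left untreated, against APP/PS1 mice that had received water and were left for the same time. Its members are the 8 arrays titled APP-PS1_UA-WASHOUT (n = 5) and APP-PS1_WASHOUT (n = 3), of 24 arrays in the series, chosen by those titles and by no measured value. Below, the former are the treated arrays and the latter the control arrays. All 8 animals were male, of the strain given as B6.Cg-Tg(APPswe,PSEN1dE9)85Dbo/J, with the genotype given as carrying both the APP and PSEN transgenes. In this strain, as background, both transgenes are driven by mouse prion protein promoter elements, so that mutant human APP and presenilin 1 are made mostly in brain. Gavage, with urolithin A or water, ran daily from 2 to 7 months of age and was followed by 1 month without it. The treatment protocol gives the dose as 200 mg/kg/day and the series design text as 20 mg/kg/day. The sample labels give an age of 9 months for both washout groups, while the design text places their collection 1 month after 7 months. The other groups, used here only for reference levels, were WT_CTR (n = 4) and WT_WASHOUT (n = 5), which had the same strain name without the transgenes and received water, and APP-PS1_CTR (n = 3, water) and APP-PS1_UA (n = 4, urolithin A), which carried them; WT_CTR, APP-PS1_CTR and APP-PS1_UA were collected without washout, at a labelled age of 8 months. The labels do not state whether animals were littermates. The p-values here rest on the spread between arrays within a group, pooled over the 6 groups unless stated. Where the groups compared vary more than the others, that pooled spread is too small for them.

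Urolithin A is a compound that gut bacteria make from ellagitannins of fruits and nuts. It is best known for promoting mitophagy, the removal of damaged mitochondria through the autophagy machinery, in which Pink1 marks the organelle, Ulk1 starts the autophagosome and Sqstm1 links cargo to it. It is also known as a ligand of the aryl hydrocarbon receptor (AHR), whose targets include the enzymes Cyp1a1 and Cyp1b1. In mice with amyloid deposits, microglia near plaques raise a set of genes that depend on the receptor Trem2 and its adaptor Tyrobp, among them Cst7 and Itgax, and astrocytes raise Gfap. The question this comparison addresses is whether differences from untreated transgenic animals were present after the gavage had stopped.

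The 8 arrays lay on 1 slide, so no slide difference enters the comparison. Row 1 of that slide held the 3 control arrays and APP-PS1_UA-WASHOUT 1, and row 2 held the other 4 treated arrays. In row 2, 63.7% to 69.9% of spots were well above background, against 73.8% to 76.9% in row 1, and the SD of the negative control spots was 4.72 to 6.17 intensity units against 3.14 to 4.14. The 75th percentile of the processed signal, to which each array was scaled, was 1783 to 2144 over the 8 arrays, and no spot was saturated. Precision is limited by how few arrays each group has. All 7 markers used to check the tissue (Prox1, Wfs1, Zbtb20, Rgs14, Spink8, C1ql2 and Necab2) were well above background on all 8 arrays. Prnp, the gene whose promoter drives the transgenes, was at 7.45 ± 0.09 (SD, n = 3) in the control arrays and 7.48 ± 0.08 (SD, n = 5) in the treated arrays, against 6.05 ± 0.07 (SD, n = 5) in WT_WASHOUT. Levels throughout are log2 of the processed signal minus the array's 75th percentile, so that 0 is the level of a gene at that percentile, and are not compared between genes.

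In the treated arrays 8 features were higher and 15 were lower than in the control arrays at an adjusted p under 0.05, of 35259 tested (limma over all 24 arrays, Benjamini-Hochberg adjustment). These 23 are 0.0652% of the features tested, 0.0227% for the higher and 0.0425% for the lower ones. At an unadjusted p under 0.05 there were 2698, or 7.65%, of which the higher were 3.7% and the lower 3.95% of all features. The count rests on how the spread was estimated. With only the 8 arrays in the fit no feature passed, with 2496 at an unadjusted p under 0.05 and a lowest adjusted p of 0.334. With slide and array row as blocks 81 passed, 69 of them higher, and 9 of the 23 were among them. That fit has 1 row term shared by all 3 slides, so it cannot remove a row difference particular to this slide. With normexp background correction 4 passed. This setting adds an offset of 50 intensity units, which shrinks the log2 changes of dim features. Without a filter on dim probes 2862 passed. Leaving out 1 array gave 79 without APP-PS1_WASHOUT 2 and 52 without APP-PS1_UA-WASHOUT 1, and 13 to 15 without APP-PS1_WASHOUT 1 or 3 or APP-PS1_UA-WASHOUT 4 or 5. Within row 1, where 1 treated array stood against the 3 controls and was assumed to vary like the other groups, 174 passed, 159 of them higher and 10 shared. Only 5 of the 23 features were well above background on all 8 arrays, 4 of them higher and 1 lower. Of the 15 lower ones, 11 had no treated array well above background, and 4 of the 8 higher ones had no such control array.

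**Figure D1:**
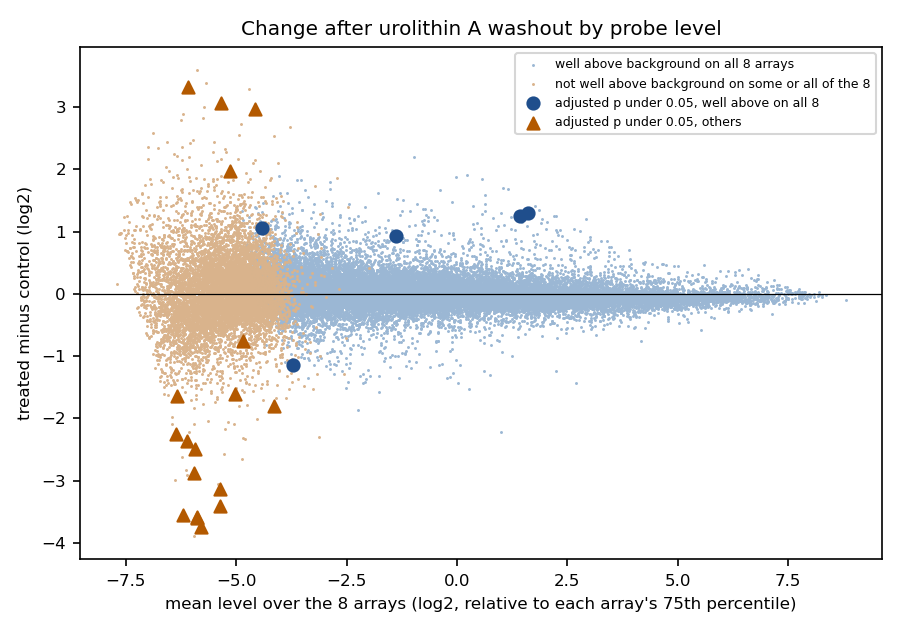
Change (treated minus control, log2) of each feature against its mean level over the 8 arrays (log2, relative to each array's 75th percentile). Large markers are the 23 features at an adjusted p under 0.05: the 5 circles were well above background on all 8 arrays, while the 18 triangles lie at the dim left end.

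Of the called features with a symbol, 3 were well above background on all 8 arrays: Smco4, Nhlh2 and the predicted gene Gm31992. Smco4 encodes a small single-pass membrane protein and Nhlh2 a helix-loop-helix transcription factor of neurons known from hypothalamic control of body weight. The bases before the RefSeq starts of Smco4 and Nhlh2 are shown because these are the called genes that are not predicted models and were well above background on all 8 arrays. They stand next to those of Cyp1a1 and Cyp1b1, the textbook AHR targets. Each run is the 250 bases before the start in GRCm38.p6, 5′ to 3′ on the gene's strand, with the core of the AHR response element, GCGTG, in capitals wherever it occurred on either strand (CACGC on the other). Overlapping matches run together. The windows are chr9:15493182-15493431 (plus strand) for the first of 2 listed starts of Smco4, chr3:102009895-102010144 (plus) for Nhlh2, chr9:57697363-57697612 (plus) for Cyp1a1 and chr17:79715062-79715311 (minus) for Cyp1b1.
Smco4: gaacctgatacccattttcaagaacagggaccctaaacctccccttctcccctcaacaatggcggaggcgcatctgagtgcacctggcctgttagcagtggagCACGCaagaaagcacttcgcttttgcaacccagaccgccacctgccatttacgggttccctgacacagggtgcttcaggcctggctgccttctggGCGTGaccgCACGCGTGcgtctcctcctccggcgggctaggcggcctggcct
Nhlh2: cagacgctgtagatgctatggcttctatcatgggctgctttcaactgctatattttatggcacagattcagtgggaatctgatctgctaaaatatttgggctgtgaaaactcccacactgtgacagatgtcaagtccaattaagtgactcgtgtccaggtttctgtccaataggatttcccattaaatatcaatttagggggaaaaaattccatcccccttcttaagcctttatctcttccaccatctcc
Cyp1a1: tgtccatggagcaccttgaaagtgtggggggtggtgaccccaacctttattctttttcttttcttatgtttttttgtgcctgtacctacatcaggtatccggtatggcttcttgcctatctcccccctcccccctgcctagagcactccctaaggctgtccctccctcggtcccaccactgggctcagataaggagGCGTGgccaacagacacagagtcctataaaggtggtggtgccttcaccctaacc
Cyp1b1: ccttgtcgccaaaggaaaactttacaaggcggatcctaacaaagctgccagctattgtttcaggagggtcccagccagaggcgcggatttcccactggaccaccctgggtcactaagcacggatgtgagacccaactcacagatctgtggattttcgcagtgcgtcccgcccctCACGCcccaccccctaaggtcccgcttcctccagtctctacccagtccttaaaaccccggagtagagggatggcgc
The core occurred 4 times before this Smco4 start, 0 times before its second listed start, 0 times before the Nhlh2 start and 1 time each before Cyp1a1 and Cyp1b1. The last marked stretch of Smco4 reads the same on both strands and holds 1 match on each. Of 32851 RefSeq windows of the same length, 28.2% held at least 1 core. The share holding as many as 4 was not counted, and bases farther from the starts were not searched. G and C made up 61.2% of this Smco4 window, 51.2% of its second, 42.0% of Nhlh2, 53.6% of Cyp1a1 and 58.0% of Cyp1b1. The counts of cores were not adjusted for this. A match is a description of the letters only.

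Smco4 was higher in the treated arrays. Its level was 0.44, 1.38 and 0.55 in control arrays 1 to 3 and 2.19, 1.69, 1.94, 2.42 and 2.19 in treated arrays 1 to 5, so the groups did not overlap. The lowest treated array was above APP-PS1_WASHOUT 2, the highest control. The change was 1.30 (SE 0.22), a 2.45-fold difference (95% interval 1.78 to 3.39; limma adjusted p = 0.025). The other groups, which lay on other slides, averaged -0.26 to 0.11, below both washout groups of APP/PS1 animals. The adjusted p was 0.203 without APP-PS1_WASHOUT 1, 0.165 without APP-PS1_WASHOUT 3, 0.0569 without APP-PS1_UA-WASHOUT 4 and 0.066 without APP-PS1_UA-WASHOUT 5. With slide and row as blocks it was 0.0802, and the change 1.35. It was 0.148 within row 1, 0.0591 with array weights, 0.0516 when only features well above background on all 8 arrays were tested and 0.497 with only the 8 arrays. Of 17 alternatives other than leaving out a single array, Smco4 passed in 8.

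Nhlh2 was lower in the treated arrays. It was at -2.66, -3.27 and -3.05 in the control arrays and -4.04, -4.46, -3.74, -4.25 and -4.19 in the treated arrays. Every treated array was below every control array. The change was -1.14 (SE 0.19) (95% interval -1.54 to -0.74; limma adjusted p = 0.0208), and the other 4 groups averaged -3.86 to -3.48, between the groups compared. The adjusted p was 0.0428 with slide and row as blocks, 0.189 without APP-PS1_WASHOUT 1, 0.0887 without APP-PS1_WASHOUT 3, 0.0569 without APP-PS1_UA-WASHOUT 4 and 0.0522 without APP-PS1_UA-WASHOUT 5. Within row 1 it was 0.245, and with only the 8 arrays 0.479. With normexp background correction, whose offset shrinks log2 changes at low levels, the change was -0.65 (limma adjusted p = 0.0112). For Smco4 and Nhlh2 the replicate number as a block gave adjusted p of 0.0744 and 0.0906. Gm31992, named after its values were seen, was at -5.16, -4.84 and -5.22 in the control arrays and -4.42, -3.75, -3.69, -4.16 and -4.09 in the treated arrays, higher in every treated array, with a change of 1.05 (SE 0.19; limma adjusted p = 0.0321).

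The other 6 named genes past the threshold fell to background in every treated array, so only a lower bound of their fold can be given. Tbpl2, a germ-line relative of the TATA-binding protein, was at -3.49 and -3.85 in APP-PS1_WASHOUT 1 and 3 (an outlier spot of array 2 was dropped) and at -8.01, -6.94, -6.73, -6.99 and -7.38 in the treated arrays. The measured change was -3.54 (SE 0.27), at least 2.52-fold lower (limma adjusted p = 1.89e-06). Without the filter on dim probes the direction turned, to a rise of 2.04, as another probe then stood for the gene. Cxcr1, a receptor for CXC chemokines carried by neutrophils, was at -5.08, -2.92 and -4.46 against -7.54, -6.82, -6.66, -6.89 and -7.25. It was at least 1.80-fold lower (measured change -2.88 (SE 0.33), limma adjusted p = 0.000405). The control arrays of both genes stood apart from all other arrays. For Cxcr1 the SD was 1.11 in the control arrays, against 0.07 in APP-PS1_CTR and 0.18 in WT_WASHOUT. The SE pools these, so it understates the spread of the control arrays.

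Olfr1314, an odorant receptor, was at -4.32, -4.99 and -3.80 in the control arrays and -7.29, -6.84, -6.68, -6.21 and -7.27 in the treated ones, at least 1.56-fold lower (measured change -2.49 (SE 0.26), limma adjusted p = 0.000136). Tprg was at -5.44, -3.65 and -1.84 against -8.06, -6.95, -6.79, -7.02 and -7.38, at least 2.57-fold lower (measured change -3.60 (SE 0.65), limma adjusted p = 0.0321), with control arrays more than 3 log2 units apart. Tprg missed the threshold without APP-PS1_WASHOUT 2 or 3 or without APP-PS1_UA-WASHOUT 3, 4 or 5, with adjusted p up to 0.221. Psg27, of the pregnancy-specific glycoproteins, was at -4.97, -5.90 and -3.99 against -7.78, -6.99, -6.76, -7.04 and -7.42, at least 1.04-fold lower (measured change -2.24 (SE 0.31), limma adjusted p = 0.00313). Ppm1n, a protein phosphatase, was at -5.12, -4.01 and -4.75 against -7.39, -6.67, -6.75, -6.90 and -7.27, at least 1.30-fold lower (measured change -2.37 (SE 0.31), limma adjusted p = 0.00203), but its other probe changed by 2.13 in the opposite direction.

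For these 6 genes the 4 other groups averaged between -8.44 and -6.10, and of the 15 lower features 14 had all 4 other group means below that of the control arrays. A lower call favours features with high control arrays, so this order follows in part from the selection. The share of all features with this order was not counted. The contrast of APP-PS1_WASHOUT with WT_WASHOUT, which shares the control arrays and also differs by slide, called 27.5% of features, and that of APP-PS1_UA-WASHOUT with WT_WASHOUT 36.3%. In the former, Tbpl2 changed by 4.63, Cxcr1 by 4.09, Olfr1314 by 3.90, Tprg by 3.49, Psg27 by 3.40 and Ppm1n by 2.09. With slide and row as blocks 5 of the 6 still passed (limma adjusted p 5.53e-05 for Tbpl2, 0.0188 for Cxcr1, 0.0125 for Olfr1314, 0.0267 for Psg27 and 0.0188 for Ppm1n). Tprg did not (limma adjusted p = 0.0843). Only on the slide of these 8 arrays did every row 2 array exceed row 1 in control spot SD. The row term shared by all slides cannot remove that. With row as a block in the 8 arrays, Tbpl2 passed in limma and Cxcr1, Olfr1314, Tprg, Psg27 and Ppm1n did not. Within row 1, with 1 treated array, the changes were -4.34 for Tbpl2, -3.38 for Cxcr1, -2.92 for Olfr1314, -2.82 for Psg27, -2.76 for Ppm1n and -4.41 for Tprg. None of the 6 passed with only the 8 arrays and no block, or with normexp background correction. Under normexp their changes were -0.97 for Tbpl2, -0.51 for Cxcr1, -0.52 for Olfr1314, -1.40 for Tprg, -0.62 for Psg27 and -0.26 for Ppm1n. Its offset of 50 intensity units by itself shrinks the log2 changes of probes this dim. The calls lost there therefore cannot tell whether the falls hold under background correction. The lowest processed signal was 7.64 to 11.6 in row 2 against 3.71 to 5.35 in row 1, which moves with the groups.

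**Figure D2:**
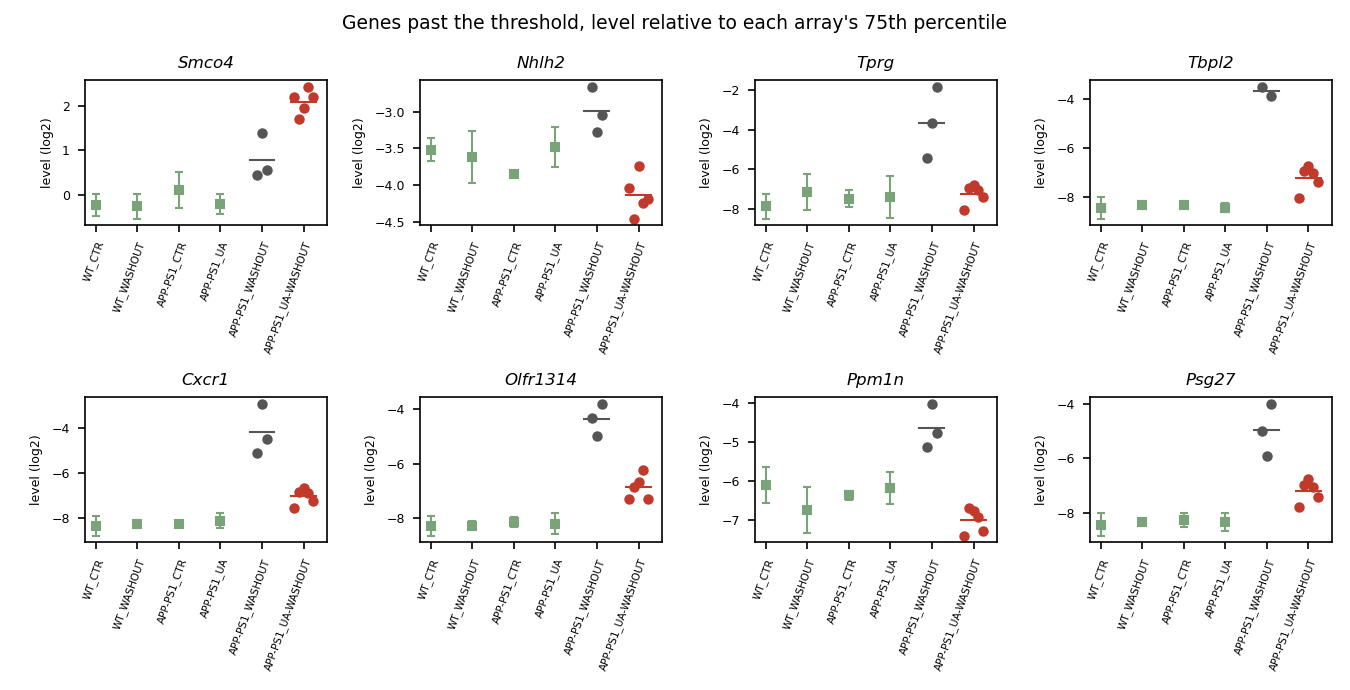
Level (log2, relative to each array's 75th percentile) of the 8 named genes past the threshold. Grey circles are the 3 control arrays, red circles the 5 treated arrays with their means as lines, and green squares the mean ± SD of the 4 other groups; for 6 genes only the control arrays stand above the rest, while Smco4 was higher in the treated arrays than in any other group.

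No gene of plaque-associated microglia passed the test. Of 28 list members 19 lay above 0, beside 45.7% of all features. Members of a list were measured on the same 8 arrays, so such counts are not of independent values. The median change was 0.09, beside -0.02 over all features and 0.94 for the same members in the contrast of APP-PS1_WASHOUT with WT_WASHOUT. The median was -0.02 without APP-PS1_WASHOUT 3, 0.21 without APP-PS1_WASHOUT 2 and -0.04 with slide and row as blocks. The mean level of 27 members measured on every array was 1.64, 1.83 and 1.43 in the control arrays and 1.54, 1.68, 1.73, 1.92 and 1.72 in the treated arrays, and the groups overlapped. Cst7, an inhibitor of cathepsins, was at 0.87, 1.07 and -0.07 against 0.84, 1.29, 0.86, 1.05 and 1.16. APP-PS1_WASHOUT 3 was the lowest of the 8. The change was 0.42 (SE 0.35), with a 95% interval of -0.31 to 1.14 (limma adjusted p = 0.83). In the contrast of APP-PS1_WASHOUT with WT_WASHOUT, on different slides, Cst7 changed by 5.87. The lower end of the interval is small beside that difference, which also holds any slide difference.

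Trem2, the receptor for lipids and amyloid on microglia, was at 3.08, 3.44 and 2.68 against 2.86, 3.24, 2.97, 3.31 and 3.26. Its change was 0.06 (SE 0.17) with an interval of -0.29 to 0.40. In the contrast of APP-PS1_WASHOUT with WT_WASHOUT, on different slides, it changed by 1.20. Tyrobp, the signalling adaptor of Trem2, was at 2.49, 2.68 and 2.38 against 2.49, 2.71, 2.36, 3.05 and 2.90. It changed by 0.18 (SE 0.15), beside 1.03 in that contrast with WT_WASHOUT. Itgax, the integrin CD11c, was at -1.98, -1.44 and -2.49 against -1.78, -1.28, -1.84 and -1.23 in the 4 treated arrays with a value (an outlier spot of array 4 was dropped), a change of 0.44 (SE 0.31). The groups overlapped for each of these genes. Gfap, the astrocyte filament, changed by 0.02 (SE 0.18) with an interval of -0.36 to 0.41, and Ctsz, a lysosomal protease, by 0.04 (SE 0.17) with -0.32 to 0.41. In the same contrast with WT_WASHOUT, Gfap changed by 0.87 and Ctsz by 0.66.

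Among the remaining immune and glial lists 0 members passed the test. Median changes were -0.02 for 16 homeostatic microglia genes, -0.04 for 20 complement, Fc receptor and antigen presentation genes, 0.05 for 20 interferon-stimulated genes, 0.07 for 18 inflammasome, cytokine and toll-like receptor genes, -0.02 for 15 reactive astrocyte genes and -0.10 for 15 astrocyte identity genes. C3, the central complement protein, had the lowest p of its list. It was at 0.87, 1.18 and 0.72 against -1.24, -0.85, -0.74, 0.73 and -0.41; APP-PS1_UA-WASHOUT 4 lay among the controls. Its change was -1.42 (SE 0.53) (limma adjusted p = 0.489). Igf1, a growth factor that plaque microglia release, was at -1.51, -1.24 and -1.37 against -1.23, -1.06, -0.92, -0.99 and -0.95, narrowly without overlap. It changed by 0.34 (SE 0.14) (limma adjusted p = 0.546), and by 0.15 with slide and row as blocks. Of all features 2.41% did not overlap with the treated arrays higher.

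**Figure D3:**
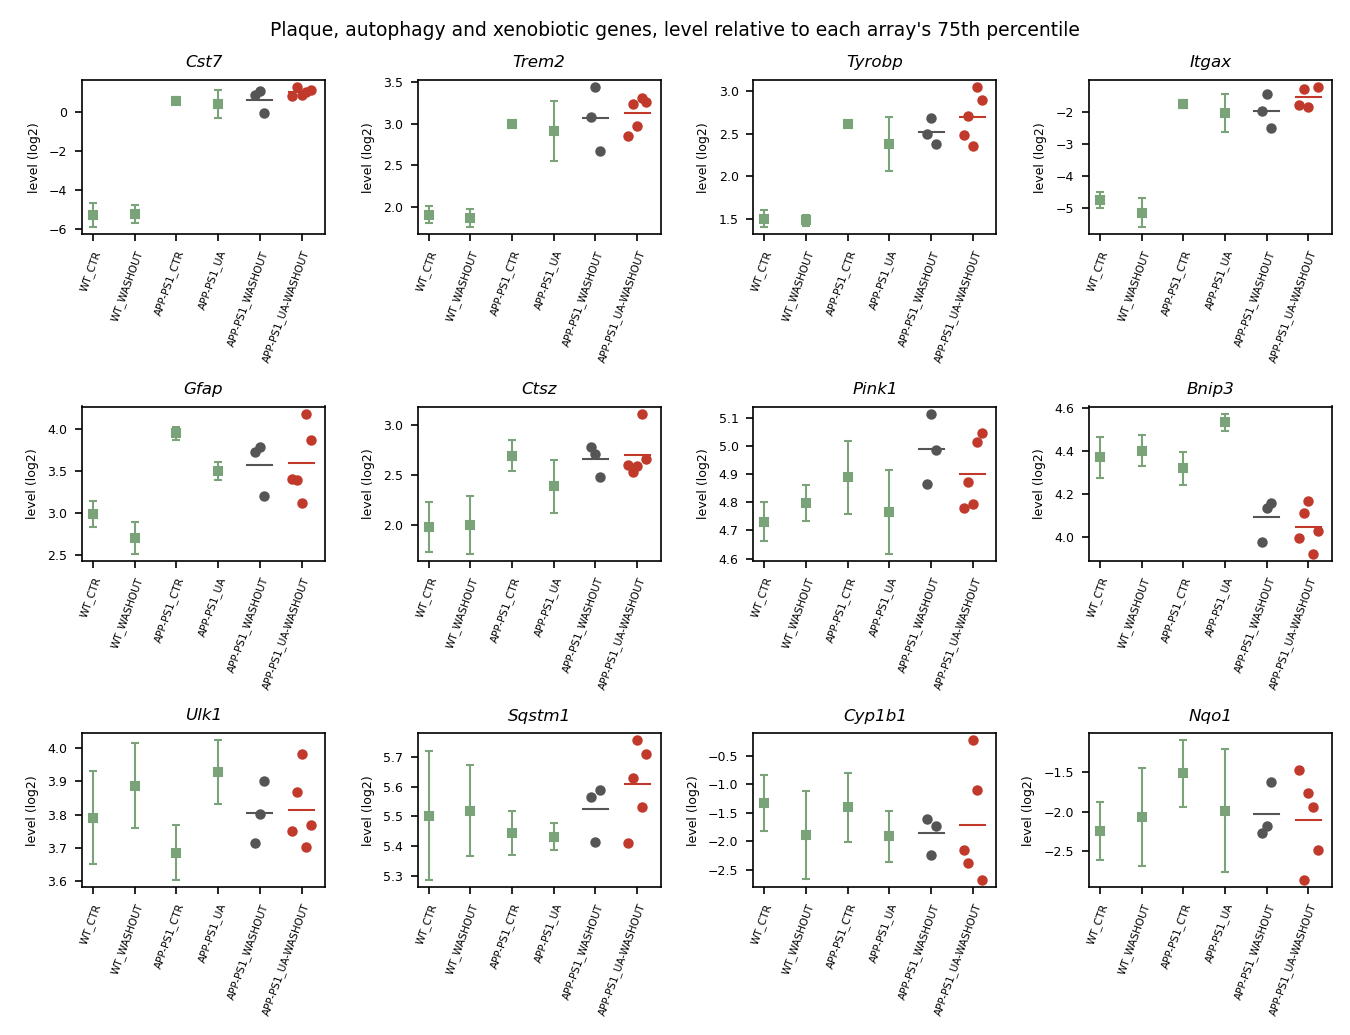
Level (log2, relative to each array's 75th percentile) of 12 genes of plaque glia, autophagy and xenobiotic response in the 6 groups; grey and red circles are the control and treated arrays, lines their means, green squares the mean ± SD of the other groups. In all 12 panels the grey and red circles overlap.

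Of the 30 autophagy and mitophagy genes tested 0 passed, 6 lay above 0 (45.7% over all features) and the median change was -0.07. Pink1 was at 4.86, 5.11 and 4.99 against 4.78, 4.87, 4.79, 5.01 and 5.04, a change of -0.09 (SE 0.09) with an interval of -0.28 to 0.11. Ulk1 was at 3.71, 3.80 and 3.90 against 3.75, 3.87, 3.98, 3.70 and 3.77 and changed by 0.01 (SE 0.09), with an interval of -0.19 to 0.21. The other Ulk1 probe changed by -0.28, outside that interval. Sqstm1 was at 5.57, 5.42 and 5.59 against 5.41, 5.63, 5.76, 5.53 and 5.71 and changed by 0.08 (SE 0.11), interval -0.14 to 0.31. Its other probe changed by -0.20, also outside the interval. On the probes whose levels are given, the control and treated arrays overlapped for each of these genes. Bnip3, a mitophagy receptor, changed by -0.05 (SE 0.08) with an interval of -0.21 to 0.12. The 32 lysosome genes had a median of 0.00, 31 nuclear-encoded oxidative phosphorylation genes -0.06 and 25 genes of mitochondrial biogenesis and dynamics -0.08, with 0 members passing in each. Ppargc1a, the coactivator that drives mitochondrial biogenesis, changed by 0.05 (SE 0.20) with an interval of -0.36 to 0.46.

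Of 22 AHR and NRF2 targets tested 0 passed, and the median was -0.08. Cyp1a1 was not well above background on any of the 8 arrays, so no fold is given. Cyp1b1, whose promoter is shown above, was at -1.61, -2.24 and -1.73 against -2.15, -2.38, -0.22, -1.09 and -2.68. APP-PS1_UA-WASHOUT 3 and 4 were above all controls and the other 3 treated arrays below APP-PS1_WASHOUT 3. The change was 0.15 (SE 0.49) with an interval of -0.86 to 1.17. Nqo1, a quinone reductase driven by NRF2, was at -2.27, -2.18 and -1.62 against -1.47, -2.87, -1.77, -1.94 and -2.48, a change of -0.08 (SE 0.39), interval -0.89 to 0.73. Tiparp, an AHR-induced enzyme that limits the receptor, had the lowest p of the list and was at 0.48, 0.44 and 0.66 against 0.09, -0.02, 0.18, 0.31 and 0.48, a change of -0.32 (SE 0.12) (limma adjusted p = 0.521). Aldh3a1 had the largest change of the list, 0.70 (SE 0.36) (limma adjusted p = 0.679). It was at 1.66, 2.20 and 1.24 against 2.76, 2.28, 2.24, 2.51 and 2.20, and the groups overlapped. WT_WASHOUT, on another slide, averaged -0.97 for Aldh3a1.

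Neuronal lists also had 0 members past the threshold. Over all 592 list members 27 had an unadjusted p under 0.05, beside 2698 of 35259, or 7.65%, over all features. The lists thus held a smaller share than the features as a whole. Medians were -0.08 for 30 glutamate receptor and postsynaptic genes, -0.10 for 25 GABAergic genes, -0.14 for 19 immediate early genes, -0.10 for 19 neurogenesis genes and -0.22 for 20 hippocampal subfield markers. Of these markers 18 lay below 0, where 45.7% of all features lay above it. Grin2d, an NMDA receptor subunit, was at 1.93, 2.98 and 2.41 against 3.62, 3.01, 3.22, 3.30 and 3.58. The groups did not overlap, but the change of 0.91 (SE 0.24) missed the threshold (limma adjusted p = 0.217), and WT_WASHOUT on another slide averaged 0.56. Over all features 2.41% did not overlap with the treated arrays higher and 3.17% with them lower. Egr4, an activity-induced factor, was at 2.87, 3.01 and 2.69 against 1.96, 2.16, 1.62, 2.61 and 2.76 and changed by -0.63 (SE 0.25) (limma adjusted p = 0.537). The medians were -0.08 for 19 integrated stress response genes, -0.03 for 16 heat shock chaperones and -0.05 for 15 genes of APP, its secretases and Prnp. App itself was at 6.26, 6.41 and 6.58 against 6.16, 6.39, 6.55, 6.23 and 6.39, a change of -0.07 (SE 0.10). The other App probe changed by -0.36.

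**Figure D4:**
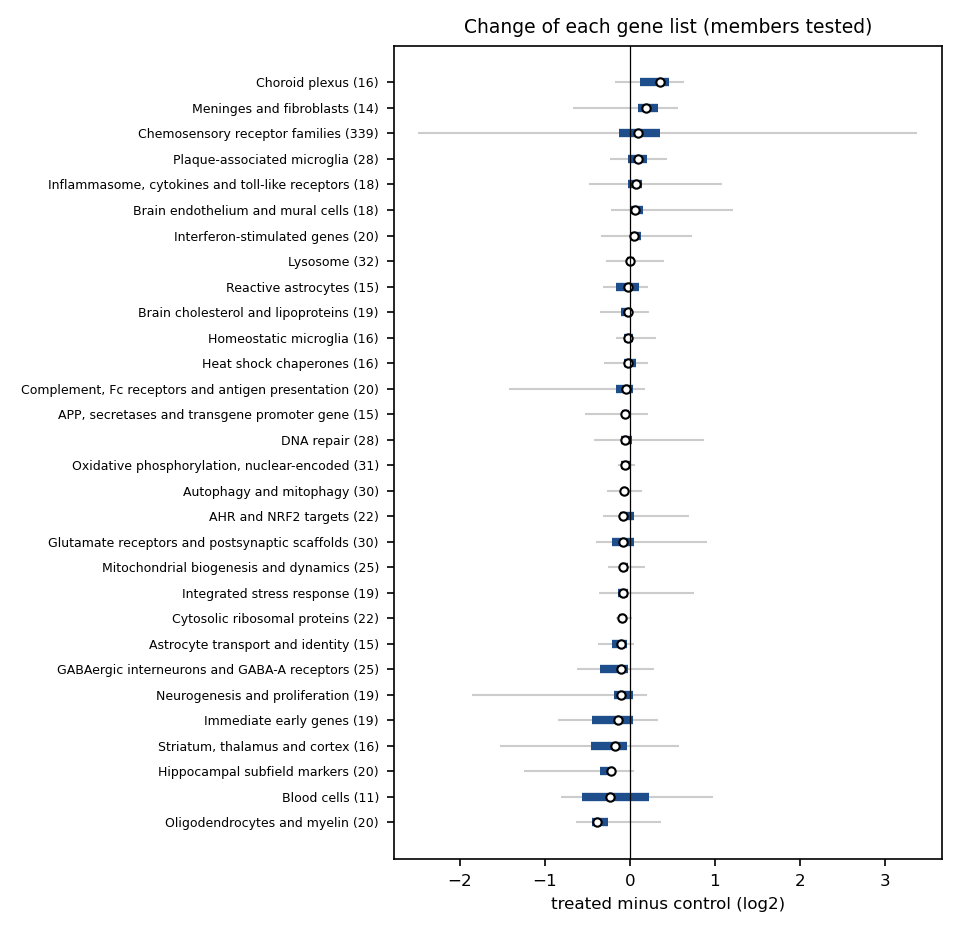
Change (treated minus control, log2) of the members of each list, with the number tested in brackets: white circles are medians, blue bars the quartiles and grey lines the lowest and highest member. Medians run from -0.39 for oligodendrocyte and myelin genes to 0.35 for choroid plexus genes, and 0 of 592 members of the 29 hand-made lists passed the test.

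The lists with the largest medians mark cell types whose share in a dissected hippocampus can vary. In bulk tissue, fewer cells of a type and less RNA per cell cannot be told apart. Of all features 45.7% lay above 0. Of 20 oligodendrocyte and myelin genes 18 lay below 0, with a median of -0.39 and 0 past the threshold. Their mean level was 1.92, 2.10 and 2.03 in the control arrays and 1.57, 1.42, 1.43, 2.12 and 1.96 in the treated arrays. APP-PS1_UA-WASHOUT 1, 2 and 3 were below every control, while 4 and 5 were among them. Mobp, a myelin structural protein, was at 3.62, 3.74 and 3.71 against 2.82, 2.73, 3.03, 3.83 and 3.64 and changed by -0.48 (SE 0.23) (limma adjusted p = 0.644). The list's median ranged from -0.52 to -0.28 when 1 array was left out and was -0.58 with slide and row as blocks.

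Choroid plexus genes varied more within groups than between them. Of 16 members 15 lay above 0 (45.7% over all features), with a median of 0.35. Their mean level over 15 members was -0.39, -1.003 and 2.61 in the control arrays and 2.37, -1.90, 1.97, 2.38 and -1.30 in the treated arrays. Without APP-PS1_WASHOUT 2 the median was -0.35, and without APP-PS1_WASHOUT 3 it was 1.41. Ttr, the thyroid hormone carrier made by this epithelium, was at 4.47, 3.61 and 7.80 against 7.64, 2.28, 7.50, 7.77 and 3.58, with APP-PS1_WASHOUT 3 and APP-PS1_UA-WASHOUT 1, 3 and 4 high. The 14 meningeal and fibroblast genes had a median of 0.19, ranging from -0.26 to 0.38 when 1 array was left out. Among 18 endothelial and mural genes the median was 0.06, and Tagln, an actin-binding protein of smooth muscle, was at 2.08, 2.70 and 1.68 against 4.09, 2.64, 3.38, 3.04 and 3.68, a change of 1.21 (SE 0.30) (limma adjusted p = 0.182; 0.0203 with slide and row as blocks). The part of tissue composition in the other results was not tested.

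**Figure D5:**
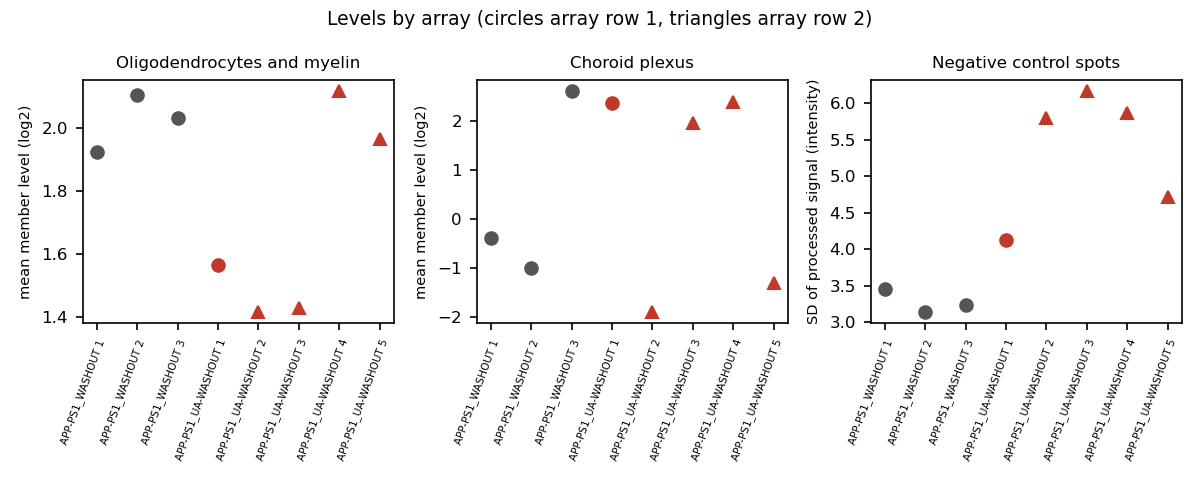
Mean level of 20 oligodendrocyte and myelin genes and of 15 choroid plexus genes (log2, relative to each array's 75th percentile), and SD of negative control spots (intensity), for each control array (grey) and treated array (red); circles lie in row 1 of the slide and triangles in row 2. Row 2 has the highest control-spot SDs, while the myelin and choroid plexus levels do not follow the row.

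Genes of the odorant, vomeronasal, taste and trace amine receptor families have little known expression in hippocampus and served as a readout of dim probes. Of 339 tested, 104 were well above background on all 8 arrays, and the median change was 0.10 beside -0.02 over all features. In the contrast of APP-PS1_WASHOUT with WT_WASHOUT, on different slides, their median was 1.23.

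The difference between urolithin A and water groups was compared between stages, as its value after washout minus its value at the end of treatment. At the end of treatment, APP-PS1_CTR 1, 2 and 3 and APP-PS1_UA 1 lay on 1 slide, and APP-PS1_UA 2, 3 and 4 on another. The end-of-treatment difference therefore also holds a slide difference, unlike that after washout. Of 35259 features 3 passed, or 0.00851%, and these were Tbpl2 (-3.41, limma adjusted p = 0.000541), Cxcr1 (-3.04, limma adjusted p = 0.0428) and Olfr1314 (-2.44, limma adjusted p = 0.0428). At the end of treatment 0 features passed in limma, and 2623 had an unadjusted p under 0.05. The stage difference was 1.61 for Smco4 (limma adjusted p = 0.118) and -1.51 for Nhlh2 (limma adjusted p = 0.0545). Cst7 gave 0.60 (limma adjusted p = 0.719). With normexp background correction 2 features passed, and none of these 3 genes was among them. With slide as a block 1 feature passed. There were 26 without APP-PS1_WASHOUT 2, 5 without APP-PS1_UA-WASHOUT 2, and 1 without any 1 of APP-PS1_WASHOUT 3, APP-PS1_UA-WASHOUT 3 or 5, APP-PS1_CTR 1, 2 or 3, or APP-PS1_UA 2, 3 or 4. The feature passing without APP-PS1_WASHOUT 3 was none of these genes.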

How the data were processed

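RNA of 24 mouse hippocampi was labelled with Cy3 and hybridised to Agilent one-colour arrays, 1 array per sample. Per the file headers, the authors' Feature Extraction 12.0.3.1 made the deposited intensity values, with background subtracted within each array. The deposited series matrix holds a score per probe, which lay within 0.005 of that array's log signal after standardization (column medians -0.17 to -0.06).

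From the processed intensity, log2 values were taken relative to the 75th percentile of each array. Control spots and 1212 outlier-flagged values were left out, probes had to be well above background on at least 3 arrays, and the brightest probe stood for each gene, leaving 35259 features (18566 with a symbol). A model of 6 group means over all 24 arrays was fitted with limma 3.58.1 in R 4.3.3, after tests on simulated data, with Benjamini-Hochberg adjustment over all features and a threshold of 0.05. The 8 named genes are the called ones with a symbol, without overlap and well above background on every array of a group, with predicted genes (Gm, Rik and LOC names) passed over; Gm31992 was named after its values were seen. Others are fixed genes or were taken from the 2 members of lowest p in each list. The members and lists were chosen with earlier results of these data known. Intervals are 95%. Promoter sequences are from RefSeq, GRCm38.p6. The background-corrected alternative (normexp) used the median spot signal and an offset of 50 intensity units.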

Additional observations from a re-analysis of the deposited data

Results flagged for a closer look

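In the treated group of 5 arrays, 2 of 83 genes checked had 1 array far from the rest, where chance gives about 1 in 20 groups (5%). Igfbpl1, a gene of immature neurons, was at -5.44 in APP-PS1_UA-WASHOUT 1, with the next array at -2.90. Ctsz was at 3.11 in APP-PS1_UA-WASHOUT 4, with the next at 2.66.

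The difference between urolithin A and water groups itself differed between the stages for Olfr1314 (-2.44), Cxcr1 (-3.04) and Tbpl2 (-3.41), by the limma test of stages. Its cause was not tested. None of the 3 passed with normexp background correction, whose offset shrinks the log2 changes of dim probes. With slide or the replicate number as a block, 1 of them did. In all 3 the control arrays after washout were high and every other group was near background.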

How the results depend on the processing

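The count of 23 called features moved under most alternatives. It was 0 with only the 8 arrays (unadjusted p under 0.05: 2496), 39 with array row as a block in the 8 arrays, 81 with slide and row as blocks, 174 within row 1, 4 with normexp, 70 with quantile normalization, 2862 without the dim filter, 3 with features well above background on all 8 arrays and 318 with the authors' scores. The share of higher calls was 34.8%, but 50% with normexp, 22.9% with quantile, 94% without the dim filter and 18.2% with the scores. Leaving out 1 array gave 13 to 79 calls; 79 was without APP-PS1_WASHOUT 2, 52 without APP-PS1_UA-WASHOUT 1, 13 and 14 without APP-PS1_WASHOUT 3 and 1, and 15 and 14 without APP-PS1_UA-WASHOUT 4 and 5. In 2 alternatives added after seeing the data, features well above background on all 8 arrays gave 0 calls with only the 8 arrays and 97 with slide and row as blocks.

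The replicate block gave 12 calls, 10 of them shared, and 1 for the stage difference. Same-numbered arrays had deviation correlations of -0.01, 0.04 and 0.23, and 2 of 6 matched their own number best. So few arrays cannot settle whether the numbers pair the samples. For the stage difference, slide as a block gave 1, quantile normalization 23, and leaving out 1 array 1 to 26. Among list members 1 passed with slide and row as blocks, Tagln, against 0. Tbpl2 turned to a rise of 2.04 without the dim filter, since another probe then stood for the gene. With normexp 2 features passed for the stage difference, 0 of them shared. Slide as a block (fixed or random), median scaling, the mean of probes and array weights kept the count within 1.5 times, though Smco4 missed the threshold with array weights (adjusted p = 0.0591). The cause of the other moves was not tested.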

Other observations

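Of 19 brain cholesterol and lipoprotein genes 0 passed and the median was -0.02. Abcg1, a sterol exporter, was at 2.49, 2.56 and 2.50 against 2.07, 2.21, 2.07, 2.32 and 2.19, without overlap, and changed by -0.35 (SE 0.11) (limma adjusted p = 0.319). Of all features 3.17% did not overlap with the treated arrays lower. The 28 DNA repair genes had a median of -0.05. Of 22 cytosolic ribosomal protein genes 21 lay below 0 with a median of -0.09, where 45.7% of all features lay above 0. Rpl19 was at 5.43, 5.37 and 5.46 against 5.23, 5.23, 5.31, 5.32 and 5.30, a change of -0.14 (SE 0.07) (limma adjusted p = 0.666).

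The 11 blood cell genes had a median of -0.23 and the 16 markers of striatum, thalamus and cortex one of -0.18, with 0 past the threshold in both. Prkcd, a kinase abundant in thalamus, was at 1.22, 0.54 and 1.91 against -1.26, -0.33, -0.81, 0.78 and 0.12 and changed by -1.52 (SE 0.63) (limma adjusted p = 0.57). Ramp3 was at 0.61, 0.67 and 2.84 against 0.45, 0.86, 0.69, 0.63 and 0.52, with APP-PS1_WASHOUT 3 far above the other 7 arrays.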
